A study of Homo sapiens with 4 samples.

Results

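The genes described here are EGR1, EGR2, EGR3, KLF2, KLF4, KLF5, KLF6, KLF10, IER2 and IER3, 10 immediate early genes of 3 families. They were taken by gene name from a table of 58735 human genes, and each name matched 1 row. Of the 10, 8 reached 1 FPKM (a read count scaled by gene length and library size) in at least 2 libraries and were tested among 14100 genes, while EGR2 and EGR3 did not reach that level. All 4 libraries are labelled HFL1, an established line of fibroblasts from human fetal lung. Of them 2 are labelled WT and 2 KO. The series names calumenin, which binds calcium in the endoplasmic reticulum, as the gene knocked out or knocked down. No treatment, time point, serum condition or cell passage is given in the labels, and neither is the knockout method or whether KO cells are 1 clone. Nothing in the labels ties the libraries of a group to different cultures, and the p-values therefore describe library-to-library spread that could be purely technical.

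Immediate early genes are transcribed within minutes of a growth factor, stress or adhesion signal, without new protein synthesis. Such signals reach their promoters, by way of ERK among others, largely through serum response factor and its ternary complex partners, and their messages are usually short-lived. EGR proteins are zinc finger transcription factors that bind GC-rich sites. KLF proteins are a related zinc finger family that binds GC and CACCC boxes, and members such as KLF4 and KLF6 can restrain proliferation. IER2 and IER3 are small proteins without zinc fingers, named for their rapid induction, and IER3 is also known as a target of NF-kB and p53.

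CALU, which encodes calumenin, stood at 87.7 and 81.8 FPKM in WT and at 6.59 and 5.95 FPKM in KO (log2 change -3.56, SE 0.14, limma adjusted p = 0.00154), so the labels and the targeted gene matched. Whole reads recovered from the values numbered 16173899 to 17715774 per library, and the mitochondrial share of reads was 12.7% in WT replicate 2 against 9.34% to 9.71% in the other 3 libraries. Most markers of the labelled cell type were missing or low: 8 of 12 fibroblast markers stayed below 1 FPKM in every library, and COL1A2 and POSTN had 0 reads in all 4. The 4 tested fibroblast markers divided, with a median log2 change of 0.49. COL1A1 rose from 0.234 and 0.280 to 3.04 and 3.16 FPKM. It reached 1 FPKM in the KO libraries alone, so its rise was in part a condition of being tested. THY1 and VIM, not called, also had both KO libraries above both WT libraries. VIM was abundant, at 76.5 and 46.8 FPKM in WT and 106 and 84.6 FPKM in KO. S100A4, also not called, had both KO libraries below. It made up most of the list's summed level, which was 1011 to 1401 FPKM in WT and 561 to 813 FPKM in KO. Of 10 epithelial markers 9 were tested, 4 rose (CDH1, KRT8, KRT18 and KRT19) and 1, CLDN4, fell. Of all genes tested, 12.1% rose and 11.1% fell. CLDN4 reached 1 FPKM in the WT libraries alone, so its fall was in part a condition of being tested. Of the 9, 6 had both KO libraries above both WT libraries and 2, CLDN4 and ELF3, had both below (34.4% and 31.3% of all genes). Keratins were abundant in WT already, with KRT8 at 349 and 425 FPKM and KRT18 at 326 and 356 FPKM. Summed over the list, the level was 1047 to 1187 FPKM in WT and 1927 to 2301 FPKM in KO. KRT7, KRT8 and KRT18 made up most of it. All 8 endothelial markers stayed below 1 FPKM, as did 7 of 8 leukocyte markers, where CD14 was the exception and ERG, CD3E and TYROBP had 0 reads. Whether the rise of CDH1, KRT8, KRT18 and KRT19 had a part in the differences below was not tested, and neither was the identity of the cell line. In bulk RNA, fewer cells making a transcript and less transcript per cell cannot be told apart.

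Promoter sequences were available in RefSeq (GRCh38.p14) for EGR1, EGR2, KLF2, KLF4, KLF5, KLF6 and IER2, 7 of the 10 genes with 10 transcript starts between them. Each window ran from 250 bases before a start to 50 after it. The CArG box is the core of the serum response element, to which serum response factor binds. It matched 2 times in the EGR1 window and 1 time in an EGR2 window, and in none of the other 8 windows. Of 35116 RefSeq promoter windows of the same length 1.29% held a CArG box and 11 windows (0.0313%) held at least 2. The EGR1 boxes lie from -105 to -96 and from -83 to -74 relative to the start, at chr5:138465374-138465383 and chr5:138465396-138465405, and the EGR2 box lies from -71 to -62, at chr10:62816428-62816437. The EGR family site, GCGNGGGCG, matched in 5 of the 10 windows and in 9.43% of all windows. Those 5 windows belong to 5 of the 7 genes (EGR1, EGR2, KLF2, KLF4 and KLF6). The 250 bases before the start are shown for these genes because they carry those matches, 5′ to 3′ on the strand of each gene, with CArG boxes and EGR family sites in capitals. EGR2 is shown at the start with the CArG box, whereas its EGR family site lies at another start.
EGR1, chr5:138465229-138465478, plus strand: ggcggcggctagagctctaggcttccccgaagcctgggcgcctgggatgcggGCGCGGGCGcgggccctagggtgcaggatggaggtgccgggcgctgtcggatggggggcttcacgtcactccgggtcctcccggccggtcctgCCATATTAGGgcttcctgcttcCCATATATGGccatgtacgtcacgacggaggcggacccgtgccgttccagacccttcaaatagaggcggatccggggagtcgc
EGR2, chr10:62816367-62816616, minus strand: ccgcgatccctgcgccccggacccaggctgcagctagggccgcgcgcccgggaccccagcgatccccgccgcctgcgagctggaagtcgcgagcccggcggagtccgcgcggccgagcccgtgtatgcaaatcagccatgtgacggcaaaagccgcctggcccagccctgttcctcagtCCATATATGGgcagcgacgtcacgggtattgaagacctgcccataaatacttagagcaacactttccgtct
KLF2, chr19:16324576-16324825, plus strand: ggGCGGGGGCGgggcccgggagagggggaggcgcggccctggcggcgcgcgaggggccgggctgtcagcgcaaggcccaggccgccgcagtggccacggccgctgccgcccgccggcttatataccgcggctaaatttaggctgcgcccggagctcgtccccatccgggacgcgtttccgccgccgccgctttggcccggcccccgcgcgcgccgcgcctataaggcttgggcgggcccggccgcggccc
KLF4, chr9:107489770-107490019, minus strand: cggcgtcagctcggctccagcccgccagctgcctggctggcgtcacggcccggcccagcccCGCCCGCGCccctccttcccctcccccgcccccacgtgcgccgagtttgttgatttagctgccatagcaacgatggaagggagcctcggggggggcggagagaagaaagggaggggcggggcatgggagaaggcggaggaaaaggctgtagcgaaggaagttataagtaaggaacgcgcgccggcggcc
KLF6, chr10:3785210-3785459, minus strand: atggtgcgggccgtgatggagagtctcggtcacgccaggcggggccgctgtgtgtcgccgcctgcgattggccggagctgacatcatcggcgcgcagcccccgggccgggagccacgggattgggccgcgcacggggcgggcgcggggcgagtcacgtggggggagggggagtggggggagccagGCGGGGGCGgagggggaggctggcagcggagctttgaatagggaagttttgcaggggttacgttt

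Matches were searched on both strands. In these sequences EGR1 carries 2 CArG boxes and 1 EGR family site, whereas the KLF genes carry only EGR family sites. The windows differ in base composition: GC content was 69.3% for EGR1, 80.7% for KLF2, 69.0% for KLF4 and 70.7% for KLF6, against a median of 58.7% over all windows, so a GC-rich motif has more chances to match in them. The GC box GGGCGG, which can overlap an EGR family site, matched in 7 of the 10 windows, against 45.0% of all windows. Those 7 windows cover 6 of the 7 genes, all but EGR1. The cyclic AMP element core TGACG matched in 5 of the 10 windows, 1 each of EGR1, EGR2, KLF4, KLF5 and IER2, against 24.6%. CCACCC matched in 3 of the 10 windows, of EGR2 and IER2 (34.3% of all windows). TATAAA matched in 1 window of KLF5 (11.5%), the NF-kB site in 1 of EGR2 (11.3%) and the Ets core CCGGAA in 1 of IER2 (17.2%). A match is a description of the letters, and no factor binding was measured.

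**Figure D1:**
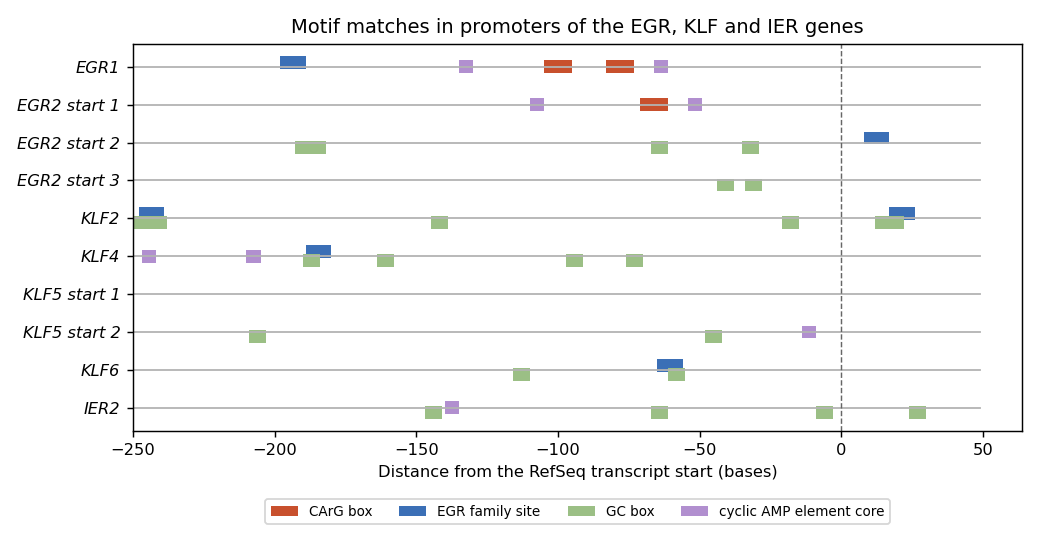
Positions of 4 motifs in the 10 RefSeq promoter windows of 7 genes, with distance from the transcript start in bases on the x axis and 1 line per start; starts of a gene are numbered by coordinate. The 2 CArG boxes of EGR1 and the 1 of EGR2 lie between -105 and -62, while KLF2, KLF4 and KLF6 hold GC boxes and EGR family sites and no CArG box.

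The genes also share a compact layout. In GENCODE 29, taking the coding transcript with the longest coding part, 9 of the 10 have at most 4 exons, against 19.5% of 10718 tested protein-coding genes with a 3′ UTR of at least 100 bases. Their median exon number was 2.5 against 9, and their median gene span 5637.5 bases against 33533.5 bases. KLF4 has 5 exons, IER2 has 1, and IER3 spans 1356 bases, less than all but 0.289% of those genes. EGR2 is the exception in span, at 107905 bases. AU-rich elements, which mark many unstable messages, were less uniform. IER3 has 6 AUUUA pentamers in a 3′ UTR of 737 bases, 8.14 per kilobase, more than 97.9% of those genes, whereas IER2 has 0 and EGR1 has 1 in 1234 bases (0.810 per kilobase, median of all 1.68). The densest 30 bases of the IER3 3′ UTR, bases 252 to 281, are shown with each pentamer in capitals (DNA letters), because IER3 had the highest density of the 10 genes.
IER3: ttgctcctaattaatATTTAtatgtATTTA

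EGR1, the best studied member and a link from growth factor signals to target genes, fell furthest in ratio of the 8 tested genes. It stood at 5.69 FPKM in WT replicate 1, 5.37 in WT replicate 2, 0.255 in KO replicate 1 and 0.214 in KO replicate 2. Both KO libraries lay far below both WT libraries, and the libraries of each group lay close together. Mean FPKM was 5.53 ± 0.230 in WT and 0.234 ± 0.0288 in KO (SD, n = 2 each), 23.6-fold lower. On the log2(FPKM + 1) scale used for all tests, which understates changes of low genes, its change was -2.40 (SE 0.14, limma adjusted p = 0.00246). These values rest on 326 and 276 reads in WT and on 14 and 11 reads in KO. The ratio of pooled reads, KO over WT, was 0.0424 with an exact 95% interval of 0.0272 to 0.0633, which covers counting error only. Without any 1 library the fold stayed between 21.7 and 25.8. EGR1 (ENSG00000120738) lies on the plus strand of chromosome 5, from 138465490 to 138469315.

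EGR2, known for its role in myelination and in lymphocytes, was close to the limit of detection. It had 7 reads in WT replicate 1 (0.104 FPKM), 4 in WT replicate 2 (0.0662 FPKM) and 0 in both KO libraries. A floor of 3 reads per library corresponds to 0.0464 and 0.0496 FPKM in the KO libraries. The WT mean of EGR2 was 1.77-fold above the mean of these floors. The ratio of pooled reads, KO over WT, was 0 with an exact 95% interval of 0 to 0.407, which covers counting error only. EGR2 was below the filter and was not tested with the other members. EGR3, an EGR family member studied in muscle spindles and lymphocytes, had 1 and 7 reads in WT and 2 and 2 reads in KO (0.0113, 0.0880, 0.0235 and 0.0251 FPKM). Its WT libraries stood on both sides of the KO libraries, and no difference was detectable at this depth. EGR2 (ENSG00000122877) lies on the minus strand of chromosome 10, from 62811996 to 62919900, and EGR3 (ENSG00000179388) on the minus strand of chromosome 8, from 22687659 to 22693302. EGR3 overlaps AC055854.1 on the other strand, which had 7 and 2 reads in WT and 0 in KO; whether counting used strand is not stated in the labels.

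**Figure D2:**
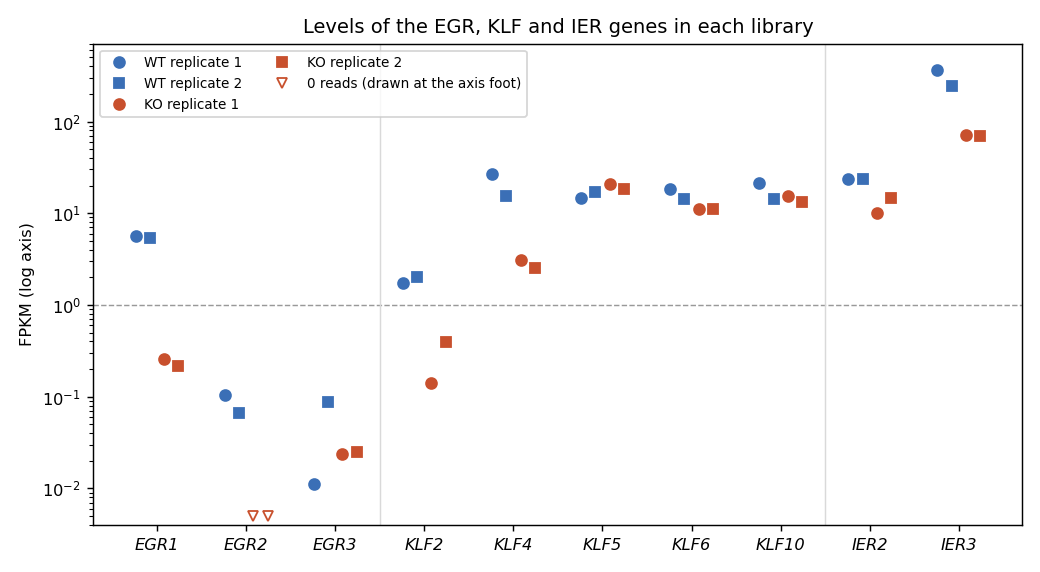
FPKM of the 10 genes in each library on a log axis, with circles for replicate 1 and squares for replicate 2; the dashed line marks 1 FPKM, and open triangles at the axis foot mark libraries with 0 reads. EGR1, KLF2, KLF4, IER2 and IER3 have both KO libraries well below both WT libraries, KLF5 has both above, and KLF10 and EGR3 overlap.

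The 5 KLF genes divided. KLF4, a factor of epithelial differentiation and of reprogramming to pluripotency, stood at 26.7 and 15.5 FPKM in WT replicates 1 and 2 and at 3.06 and 2.55 FPKM in KO replicates 1 and 2. The WT libraries differed 1.73-fold from each other, less than the gap to the KO libraries. Mean FPKM was 21.1 ± 7.96 in WT and 2.81 ± 0.358 in KO (SD, n = 2 each), 7.52-fold lower, with a log2 difference of -2.49 (SE 0.26, limma adjusted p = 0.00521). KLF2, known from endothelial cells under flow and from resting lymphocytes, stood at 1.74 and 1.995 FPKM in WT and at 0.141 and 0.393 FPKM in KO. It fell 6.98-fold (log2 change -1.18, SE 0.19, limma adjusted p = 0.0129), but on only 5 and 13 reads in KO, and the fold was 13.2 without KO replicate 2 and 4.75 without KO replicate 1. KLF4 (ENSG00000136826) lies on the minus strand of chromosome 9, from 107484852 to 107490482, and KLF2 (ENSG00000127528) on the plus strand of chromosome 19, from 16324817 to 16327874.

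The other 3 KLF genes did not pass the test. KLF6, a tumour suppressor induced by injury and growth factors, stood at 18.3 and 14.4 FPKM in WT and at 11.03 and 11.1 FPKM in KO, both KO libraries below both WT libraries (log2 change -0.51, 95% interval -0.91 to -0.11, limma adjusted p = 0.0711). KLF6 did pass with the replicate number as a block (adjusted p = 0.0229) and with limma's voom weights on the recovered reads (adjusted p = 0.0388), but not with voom and no filter (0.0503). KLF10, a TGF-beta-inducible repressor, stood at 21.3 and 14.1 FPKM in WT and at 15.3 and 13.2 FPKM in KO, and the groups overlapped (log2 change -0.27, 95% interval -0.82 to 0.28, adjusted p = 0.414). Without WT replicate 1 its log2 change was 0.011, on the other side of 0. KLF5, which promotes proliferation in epithelium and smooth muscle, stood at 14.6 and 16.8 FPKM in WT and at 21.1 and 18.6 FPKM in KO. It was the single tested member with both KO libraries above both WT libraries, and its difference did not pass (log2 change 0.32, 95% interval -0.05 to 0.69, adjusted p = 0.176). KLF6 (ENSG00000067082) lies on the minus strand of chromosome 10, from 3775996 to 3785281, KLF10 (ENSG00000155090) on the minus strand of chromosome 8, from 102648779 to 102655902, and KLF5 (ENSG00000102554) on the plus strand of chromosome 13, from 73054976 to 73077542.

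IER3, a regulator of apoptosis and of ERK and NF-kB signals, was the most abundant of the 10 genes. It stood at 363 FPKM in WT replicate 1, 246 in WT replicate 2, 71.2 in KO replicate 1 and 69.0 in KO replicate 2. The KO libraries differed 1.03-fold from each other and the WT libraries 1.48-fold. Mean FPKM was 305 ± 83.2 in WT and 70.1 ± 1.56 in KO (SD, n = 2 each), 4.35-fold lower, with a log2 difference of -2.08 (SE 0.22, limma adjusted p = 0.00537). IER2, a nuclear protein linked to cell motility, stood at 23.3 and 23.8 FPKM in WT and at 10.04 and 14.6 FPKM in KO. It fell 1.91-fold, from 23.5 ± 0.288 to 12.3 ± 3.24 FPKM (log2 change -0.90, SE 0.20, limma adjusted p = 0.0283), and the call was lost without WT replicate 1 (adjusted p = 0.122) or WT replicate 2 (adjusted p = 0.119). IER3 (ENSG00000137331) lies on the minus strand of chromosome 6, from 30743199 to 30744554, and IER2 (ENSG00000160888) on the plus strand of chromosome 19, from 13150415 to 13154908. The antisense gene IER3-AS1 overlaps IER3 but had only 2 and 4 reads in WT and 0 in KO.

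Counted together, 5 of the 8 tested genes fell (EGR1, KLF2, KLF4, IER2 and IER3) and 0 rose, where 11.1% of all 14100 genes tested were called lower and 12.1% higher (limma, adjusted p under 0.05). At an unadjusted p under 0.05 the counts were 6 and 0, and the share of all genes at that threshold is not given here. With voom on the recovered reads the counts were also 6 and 0, where 1957 of 14100 genes were called lower and 2168 higher. The unadjusted and voom counts of the lists below have the same background. The median log2 change of the 8 was -1.04, against 0.03 over all genes tested. Of the 8, 6 had both KO libraries below both WT libraries and 1 had both above, against 31.3% and 34.4% of all genes tested. EGR1 and KLF2 passed the filter through their WT libraries alone, so their difference was in part a condition of entry, and the 10 genes were picked for description with earlier results known. With no filter, which raised the number of genes tested to 32306, EGR1 kept its call (adjusted p = 0.0472), and KLF4 (0.0520), IER3 (0.0520), KLF2 (0.0681) and IER2 (0.1045) missed the threshold as adjusted p-values, as did EGR2 (0.200). With voom and no filter, 6 of the 10 were called lower, where 2445 of 32306 genes were. EGR2 was among the 6 (voom adjusted p = 0.0181), on 11 reads in WT and 0 in KO.

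**Figure D3:**
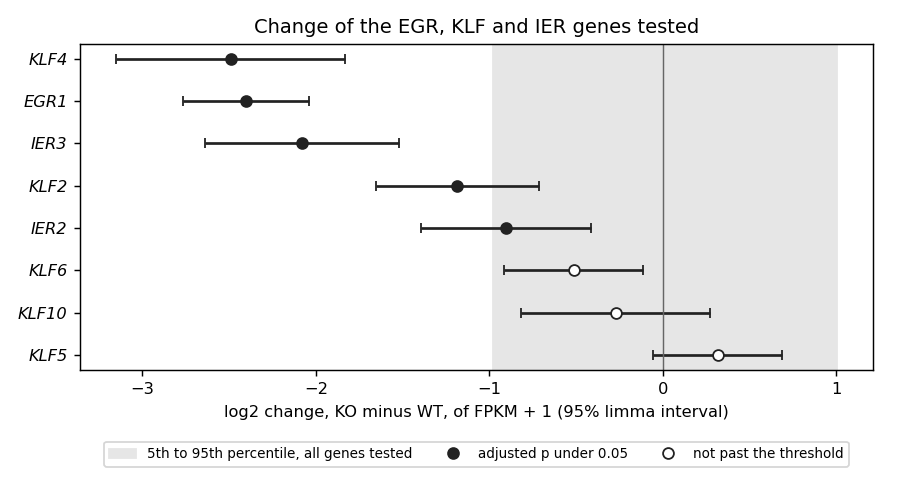
Difference between KO and WT in log2(FPKM + 1) for the 8 tested genes, with 95% limma intervals; filled points passed an adjusted p of 0.05, and the grey band spans the 5th to 95th percentile of all genes tested (-0.98 to 1.003). KLF4, EGR1, IER3 and KLF2 lie left of the band, and IER2, KLF6, KLF10 and KLF5 lie inside it.

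The order of levels changed between the groups. In WT it ran IER3, IER2, KLF4, KLF10, KLF6, KLF5, EGR1, KLF2, EGR2 and EGR3, and IER2 with KLF4, KLF4 with KLF10, KLF10 with KLF6, KLF6 with KLF5, and EGR2 with EGR3 overlapped between replicates. In KO it ran IER3, KLF5, KLF10, IER2, KLF6, KLF4, KLF2, EGR1, EGR3 and EGR2, and KLF10 with IER2, IER2 with KLF6, and KLF2 with EGR1 overlapped. By group means KLF5 stood in place 6 in WT and place 2 in KO, and KLF4 in place 3 and place 6, but in WT the libraries of KLF5 also overlapped those of KLF10 and KLF4. Summed over members, the EGR level was 5.81 and 5.52 FPKM in WT and 0.278 and 0.239 FPKM in KO, nearly all of it EGR1. For the KLF genes it was 82.7 and 62.8 FPKM in WT and 50.6 and 45.9 FPKM in KO, and for the IER genes 387 and 269 FPKM in WT and 81.2 and 83.6 FPKM in KO.

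Library differences within WT touched some members more than others. WT replicate 1 exceeded WT replicate 2 by 1.73-fold for KLF4, 1.51-fold for KLF10, 1.48-fold for IER3 and 1.28-fold for KLF6, while EGR1 differed 1.06-fold and IER2 1.02-fold. Of all genes tested, 11.8% differed over 1.5-fold between the WT libraries in either direction. The higher mitochondrial share lay in WT replicate 2, and its part in these differences was not tested. Without WT replicate 1 the fold of KLF4 was 5.51 and that of IER3 3.51, and without WT replicate 2 they were 9.52 and 5.19. Both kept their calls without any 1 library.

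Profiles across the 4 libraries were compared by the distance between log2(FPKM + 1) values centred on each gene's mean, over 6991 protein-coding genes with a mean of at least 5 FPKM. Nearest to EGR1 were SOD2, the mitochondrial superoxide dismutase (distance 0.142), ALDH1A3, a retinaldehyde dehydrogenase (0.145), SCARA5, a ferritin receptor (0.154), and RELB, an NF-kB subunit (0.154). SOD2 stood at 39.9 and 34.7 FPKM in WT and at 7.07 and 6.22 FPKM in KO. By mean FPKM, SOD2, ALDH1A3, SCARA5 and RELB fell 5.62-, 7.60-, 8.87- and 6.22-fold, against 23.6-fold for EGR1. They lie near EGR1 on the log2(FPKM + 1) scale, which understates the change of a gene as low as EGR1. Among the genes nearest to IER3 were CDCP1, a surface glycoprotein (0.173), PLAU, the urokinase (0.255), and RCAN1, a calcineurin regulator (0.267). CDCP1 shared with IER3 both the fall and the higher WT replicate 1, at 35.1 and 22.2 FPKM in WT and 6.65 and 5.32 FPKM in KO. Nearest to KLF6 were PIGH (0.0474), AKR1C1 (0.0547), PLIN2 (0.0626) and WDSUB1 (0.0678), none of which passed the test. With 4 libraries, distances mostly reflect the size of the group difference on that log scale, and they are given as a description.

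Other genes with EGR, KLF or IER names gave counts near those of all genes. Of 16 listed, 10 were tested, 1 fell and 1 rose, where 11.1% and 12.1% of all genes tested did. Their median log2 change was 0.10. The gene that rose, IER3IP1, is on the list by its name alone. IER5, a relative of IER2, fell from 91.1 and 85.7 FPKM in WT to 19.3 and 26.0 FPKM in KO (log2 change -1.93, SE 0.18, limma adjusted p = 0.00433). IER3IP1, a small protein of the endoplasmic reticulum named for binding IER3, rose from 3.77 and 3.72 to 7.67 and 6.11 FPKM (log2 change 0.73, SE 0.15, adjusted p = 0.0256), a call lost without KO replicate 1 (adjusted p = 0.0659), WT replicate 1 (0.142) or WT replicate 2 (0.137). The 7 tested KLF genes of that list (KLF3, KLF7, KLF9, KLF11, KLF12, KLF13, KLF16) and IER5L did not pass. EGR4 was not tested, with FPKM of 0.0230 in WT replicate 1 and 0 in the other libraries.

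Among 30 other immediate early genes 24 were tested, 11 fell and 2 rose, against 11.1% and 12.1% of all genes tested. Their median log2 change was -0.61. FOSL1, an AP-1 subunit that depends on sustained ERK signals, fell from 32.4 and 27.7 to 3.39 and 4.85 FPKM (log2 change -2.61, SE 0.19, limma adjusted p = 0.00312). BTG2, an antiproliferative p53 target, fell from 16.7 and 20.3 to 4.204 and 5.64 FPKM. JUN, the central AP-1 subunit, fell from 78.9 and 54.6 to 17.5 and 22.9 FPKM, and ATF3, a stress-induced repressor, from 5.03 and 3.41 to 0.664 and 0.604 FPKM. The 2 that rose, named after their values were seen, were the orphan receptor NR4A1, from 0.713 and 0.786 to 1.64 and 1.68 FPKM, and RHOB, a small GTPase, from 18.04 and 17.8 to 24.5 and 27.9 FPKM. Both calls were near the threshold (adjusted p = 0.0441 and 0.0479), and 0 of the list rose without any 1 library. FOS, the prototype of the class, also named after its values were seen, stayed below 1 FPKM in every library, at 0.744 and 0.490 FPKM in WT and 0.5995 and 0.490 FPKM in KO. ATF3 passed the filter through WT alone and NR4A1 through KO alone. The number that fell was 6 without WT replicate 1 and 2 with no filter.

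Genes around the pathway were read in the same way. The first list held 11 ERK feedback and output genes, which ERK induces and several of which dampen it. PHLDA1 is also among the other immediate early genes. Of the 11, 8 fell and 0 rose, against 11.1% and 12.1% of all genes tested, with a median log2 change of -0.71. The counts were 9 and 0 at an unadjusted p under 0.05, and 8 and 0 with voom. DUSP6, an ERK phosphatase, fell from 6.61 and 6.19 to 1.68 and 1.94 FPKM (log2 change -1.40, SE 0.14, limma adjusted p = 0.00436), and SPRY2, a receptor signalling inhibitor, from 21.8 and 17.97 to 7.05 and 7.03 FPKM. SPRY4 fell from 5.98 and 5.69 to 1.98 and 2.36 FPKM, and DUSP5, a nuclear ERK phosphatase, from 33.4 and 22.0005 to 11.1 and 11.5 FPKM. Only 3 of the list were called without WT replicate 1, 4 without WT replicate 2, 5 without KO replicate 1 and 2 with no filter. DUSP5 was no longer called when WT replicate 1 (adjusted p = 0.0781) or KO replicate 1 (0.0520) was left out.

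Serum response factor, its partners and the EGR co-repressors did not pass in the main limma fit. These are transcript levels, and the activity of the factors was not measured. Of serum response factor and its partners, 6 genes in all, 0 fell and 0 rose in limma, against 11.1% and 12.1% of all genes tested. The counts were 1 and 1 at an unadjusted p under 0.05, and 1 and 0 with voom. ELK3, a ternary complex factor that can repress, stood at 43.9 and 34.0 FPKM in WT and 26.3 and 17.6 FPKM in KO (adjusted p = 0.0601), and it did pass with voom (adjusted p = 0.0169), with the replicate number as a block (0.00326), with a filter at 5 FPKM (0.0439) and without KO replicate 1 (0.0353). MRTFA, an actin-regulated partner, stood at 13.8 and 13.3 FPKM in WT and 18.1 and 18.5 FPKM in KO (adjusted p = 0.0713), and it passed with the block (0.0298), where the counts were 2 lower and 1 higher of 6. The EGR co-repressors NAB1 and NAB2, which bind EGR proteins and are EGR targets in part, stood at 11.2 and 7.05 against 9.08 and 6.39 FPKM, and at 3.82 and 4.52 against 4.34 and 5.25 FPKM, with 0 called in limma, 0 at an unadjusted p under 0.05 and 0 with voom.

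Listed target genes gave mixed counts. Of 11 tested EGR1 targets 5 fell and 0 rose, against 11.1% and 12.1% of all genes tested, with a median log2 change of -0.34. The counts were also 5 and 0 at an unadjusted p under 0.05 and with voom. ICAM1, a leukocyte adhesion receptor, fell from 22.4 and 16.4 to 0.231 and 0.296 FPKM, while PTGES, a prostaglandin E synthase, fell from 95.5 and 96.05 to 48.7 and 60.3 FPKM and TGFB1, the growth factor, from 118 and 98.2 to 67.4 and 64.7 FPKM. ICAM1 and F3, another of the 5, passed the filter through WT alone, so their fall was in part a condition of entry. TGFB1 lost its call without any 1 library (adjusted p = 0.0690 to 0.2498) and PTGES lost it without WT replicate 1, WT replicate 2 or KO replicate 1 (adjusted p = 0.0582 to 0.139). The count that fell was 2 without WT replicate 1, WT replicate 2 or KO replicate 1, 3 without KO replicate 2 and 1 with no filter. Of 10 tested KLF targets 3 fell and 2 rose, against 11.1% and 12.1% of all genes tested, with a median log2 change of 0.01. The list was not divided by whether a KLF protein activates or represses the gene. CDKN1A, the cell cycle inhibitor p21, fell from 472 and 469 to 39.8 and 46.8 FPKM and ENG, a TGF-beta co-receptor, from 1.67 and 1.74 to 0.450 and 0.651 FPKM, while CCNB1, a mitotic cyclin, rose from 6.21 and 9.33 to 71.5 and 66.9 FPKM and KRT19, a keratin, from 17.3 and 16.3 to 45.6 and 53.0 FPKM. ENG passed the filter through WT alone, and it lost its call without KO replicate 1 (adjusted p = 0.0702), WT replicate 1 (0.0939) or WT replicate 2 (0.0997). The count that fell was 1 without any of these 3 libraries and with no filter.

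Heat shock genes, which cells induce under protein stress, gave counts near those of all genes. Of 11 tested 0 fell and 2 rose, where 11.1% and 12.1% of all genes did (0 and 3 at an unadjusted p under 0.05, 0 and 3 with voom), with a median log2 change of 0.22. HSPB1, a small heat shock protein, rose from 151 and 175 to 270.4 and 415 FPKM (log2 change 1.04, SE 0.25, limma adjusted p = 0.0363) and HSPE1, a mitochondrial chaperonin, from 14.2 and 14.8 to 21.6 and 25.2 FPKM. Both lost their calls without KO replicate 2 and without either WT library (adjusted p = 0.0617 to 0.202), and 0 of the list were called with no filter.

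**Figure D4:**
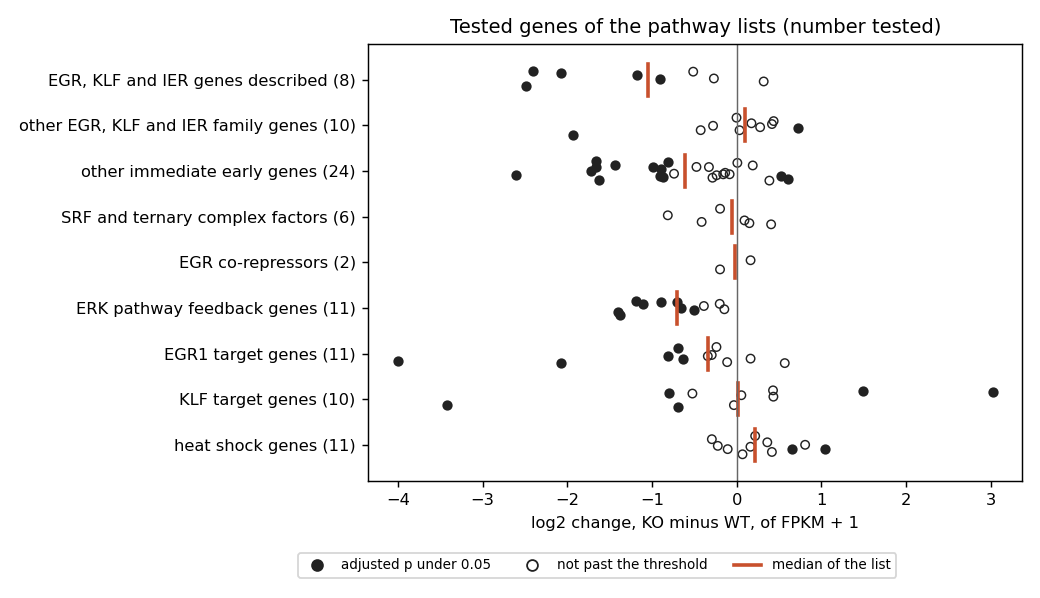
Difference between KO and WT in log2(FPKM + 1) for each tested gene of the lists, 1 point per gene with vertical scatter for visibility; filled points passed an adjusted p of 0.05, red lines are list medians, and numbers in brackets are genes tested. The genes described, the other immediate early genes and the ERK feedback genes have medians of -1.04, -0.61 and -0.71, and a gene on 2 lists is drawn on both.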

How the data were processed

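RNA from 4 libraries labelled HFL1 was sequenced in paired ends and aligned with HISAT2 2.0.5, per the labels' protocols. The submitters' processing notes name the builds hg38 and mm10. Which counter and scaling were used is not given in the sources used here. The authors deposited FPKM values per gene and library, and all 58735 genes had the coordinates of GENCODE 29 on GRCh38. FPKM times gene length was a whole multiple of 1 step per library for 100% of values (tolerance 0.01), which gave the reads; floors are 3 reads per library.

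The main test was limma 3.58.1 (R 4.3.3) on log2(FPKM + 1), its variance prior following mean intensity (prior df 3.54; residual df 2), over 14100 genes with at least 1 FPKM in at least 2 libraries, with Benjamini-Hochberg adjustment over all of them and calls at an adjusted p under 0.05. An exact permutation test of 2 against 2 libraries cannot go below 0.333. The fit was tested on simulated data. Folds are ratios of mean FPKM. Named genes were CALU, the 10 genes, the called genes with the biggest log2 change in each list (at most 4; the 2 of highest mean FPKM if under 2 were called) and the 4 nearest profiles to EGR1, KLF6 and IER3. A single gene that the rule names is not reported here. Marker genes were named for the check of cell type. The 10 genes and the lists were chosen with earlier results of these data known.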

Additional observations from a re-analysis of the deposited data

How the results depend on the processing

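EGR1, KLF4, IER3 and KLF2 stayed lower and called in KO with a pseudocount of 0.1 or 0.5, quantile normalization, scaling to total reads, the replicate block, voom and without any 1 library, and no scaling turned the direction of a tested member. The number of members called lower was 1 with no filter, against 5, and 4 to 6 elsewhere. Over all genes, 1572 lower and 1711 higher became 193 and 183 with no filter, 1041 lower with a filter at 5 FPKM, 2577 and 2968 with the replicate block and 2445 lower with voom and no filter; leaving out 1 library gave 537 to 1260 lower and 505 to 1321 higher. Directions turned for KLF10, whose log2 change ran from -0.55 without WT replicate 2 to 0.011 without WT replicate 1, and for NAB1, which ran from -0.49 without WT replicate 2 to 0.10 without WT replicate 1 (0.027 without KO replicate 2); no such value was called, and the cause was not tested. The same-numbered libraries share only a number: with 2 pairs, their deviations correlated at 0.411 over 14100 genes, and the block raised the members called lower to 6. The voom fits were chosen after seeing the data and stand in for the planned count models, which were not run because the values are FPKM. Depth limits EGR2, EGR3 and the KO levels of EGR1 and KLF2, which rest on 0 to 14 reads per library.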
